A study of Homo sapiens with 6 samples.

Results

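The LIN28 proteins and the other oncofetal RNA regulators described here are 7 genes, LIN28A, LIN28B, L1TD1, IGF2BP1, IGF2BP2, IGF2BP3 and HMGA2, followed through the making of cardiac organoids from human embryonic stem cells. The 7 members were taken by symbol from the protein-coding rows of a table of 58735 genes, of which 19951 are protein-coding, and all 7 were found. Each of the 6 libraries came from H9, an established human embryonic stem cell line, at day 0, 2, 3, 4, 6 or 30 of the differentiation, and 10 organoids were harvested at a time point. The labels name no treatment, dose, genotype or control culture, so each day is 1 library of 1 line and is compared with another day. All 6 libraries carry the same cell type label, embryonic stem cell, which describes the starting line rather than the later cultures.

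LIN28A and LIN28B are paralogous RNA-binding proteins with a cold shock domain and a pair of zinc knuckles. They bind the precursors of the let-7 microRNAs, in many of them at a GGAG element of the loop. LIN28A draws in terminal uridylyltransferases that mark the precursor for decay. Mature let-7 in turn binds seed-matched sites in the messenger RNAs of LIN28B, HMGA2 and the IGF2BPs, so the LIN28 proteins and let-7 restrain each other. The IGF2BPs bind and stabilise messenger RNAs of the fetus, L1TD1 is an RNA-binding protein of pluripotent cells derived from a transposon open reading frame, and HMGA2 is not an RNA-binding protein but a chromatin protein that binds AT-rich DNA. These genes are high in early embryos and many tumours and low in most adult tissues.

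The let-7 sequence and its matches in the members are shown first, since several members are textbook partners or targets of let-7. RefSeq lists 12 human let-7 hairpins (GRCh38.p14) with 9 different mature 5′ arms, all with the seed GAGGUAG at bases 2 to 8, and 3 of the 9 are given here 5′ to 3′ with the seed in capitals.
let-7a: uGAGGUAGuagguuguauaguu
let-7g: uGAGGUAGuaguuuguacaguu
miR-98: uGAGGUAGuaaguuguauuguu
The precursor that LIN28 binds is shown by the hairpin of let-7g (MIRLET7G, chr3:52268278-52268361, minus strand, GRCh38.p14), with the GGAG between its arms in capitals. GGAG lay between the 2 mature arms in 9 of the 12 hairpins, and not in those of MIR98, MIRLET7A3 and MIRLET7B.
let-7g hairpin: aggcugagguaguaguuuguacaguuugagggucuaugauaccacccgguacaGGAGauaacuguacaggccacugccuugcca

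The complement of the seed, CTACCTC, was searched on the transcript strand in the 3′ UTR of 1 principal coding transcript of each gene in GENCODE release 29 on GRCh38. HMGA2, LIN28B and IGF2BP1 each held 4 matches, LIN28A, IGF2BP2 and IGF2BP3 held 1 each, and L1TD1 held 0. Of 19572 genes searched, 1701 (8.69%) held at least 1 match and 0.971% held 2 or more. Genes with a 3′ UTR of similar length (0.8 to 1.25 times) were counted with the member itself among them. Of these, 2 of 2130 (0.0939%) had at least as many matches as HMGA2, 3 of 1386 (0.216%) as LIN28B and 4 of 795 (0.503%) as IGF2BP1. At least 1 match was held by 17.1% of genes with a 3′ UTR like that of LIN28A, by 11.6% for IGF2BP2, by 11.8% for IGF2BP3 and by 6.17% for L1TD1. The first match of each matching member is given 5′ to 3′ with CTACCTC in capitals, and in all 6 it is followed by an A. The later matches of HMGA2 were not followed by an A, nor were some of those of LIN28B and the last of IGF2BP1. A match is a description of the sequence and not a measured binding site.
HMGA2 (chr12:65963298-65963320, plus strand): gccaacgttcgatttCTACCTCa
LIN28B (chr6:105078812-105078834, plus strand): acccggttgcaaagtCTACCTCa
IGF2BP1 (chr17:49051061-49051083, plus strand): tgtgtgcgaagtaaaCTACCTCa
LIN28A (chr1:26427348-26427370, plus strand): gcacagcctattgaaCTACCTCa
IGF2BP2 (chr3:185644220-185644242, minus strand): aacacacagaagaagCTACCTCa
IGF2BP3 (chr7:23311795-23311817, minus strand): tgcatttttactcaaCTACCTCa
The matches of HMGA2 depend on the transcript. HMGA2-204, with a 3′ UTR of 3003 bases, held 4, and the other 6 coding HMGA2 transcripts examined held 0, among them HMGA2-210 with a 3′ UTR of 7421 bases. LIN28B-203, with a shorter 3′ UTR than LIN28B-201, held 1 of the 4. The deposited table has 1 value for each gene, so transcripts that hold and lack the matches were not measured apart.

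Levels are given in FPKM, reads scaled by gene length and by library size, so a ratio between genes depends on the gene length that the authors used. Recovered reads totalled 13500887 to 15526924 for each library. With 1 library for each day there is no replicate check and no p-value, and the 95% intervals in parentheses cover counting error only, not the spread between cultures. A gene was called higher or lower where log2(FPKM + 1) differed by at least 1 and FPKM was at least 1 in either library. In RNA from whole organoids, fewer cells of a type and less RNA in each cell cannot be told apart. The summed level of 12 stem cell state markers was 1714 FPKM at day 0, 150 at day 6 and 21.0 at day 30, where NANOG, PRDM14 and UTF1 had 0 reads. Over the same days the sum of 12 cardiomyocyte markers was 6.06, 384 and 233 FPKM, and that of 8 fibroblast and matrix markers was 99.3, 659 and 5927 FPKM. MYL7 alone made 336 FPKM of the cardiomyocyte sum at day 6 and 64.0 at day 30. From day 6 to day 30, 6 of these 12 cardiomyocyte markers were called higher and 2 lower, beside 21% and 15.3% of all genes compared. THY1 made 82.4 FPKM of the fibroblast and matrix sum at day 0, and COL3A1 made 4173 at day 30. For 10 endoderm and liver markers the sum at days 0, 6 and 30 was 0.239, 480 and 727 FPKM. For 8 endothelial markers it was 93.0, 125 and 101, and for 8 neural markers 3.23, 12.4 and 38.8. KDR alone made 83.4, 73.9 and 63.6 FPKM of the endothelial sums. At day 30 against day 0, 4 of the 5 endothelial markers measured were called higher, beside 25.9% of all genes compared. At day 30 against day 6, 0 of the 8 were called higher and 3 lower, beside 21% and 15.3% of all genes compared. STMN2 (25.8 FPKM) and NCAM1 (11.5 FPKM) made most of the neural sum at day 30. At day 30 only 4 of the 12 stem cell markers reached 1 FPKM, so the label's cell type does not describe that library. Their part, and that of the other cell types, in the differences below was not tested.

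**Figure D1:**
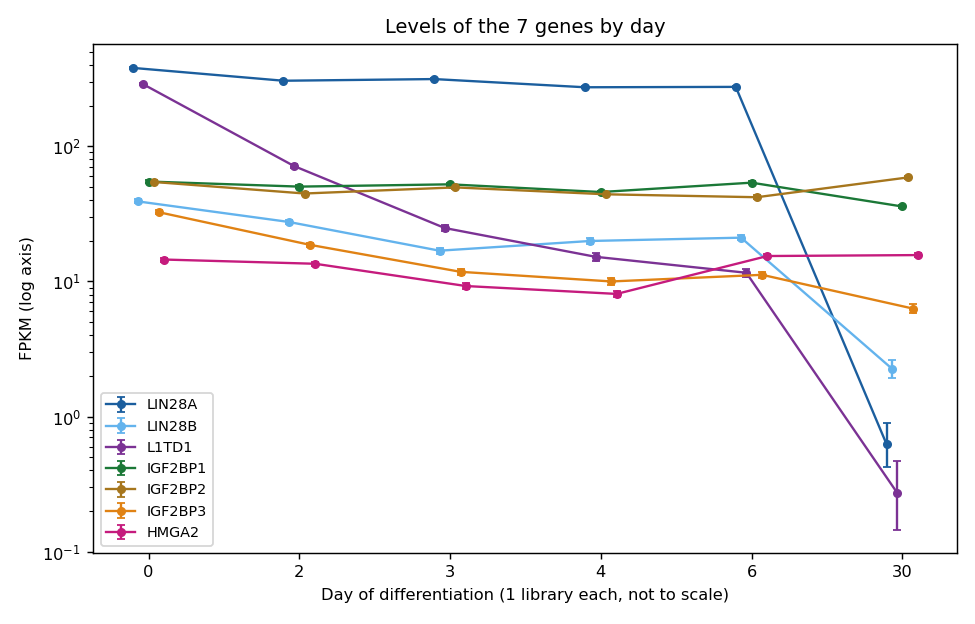
Level of each of the 7 genes in FPKM (log axis) in the library of each day (horizontal axis, not to scale), with 95% Poisson counting intervals. LIN28A lies between 273 and 380 FPKM through day 6 and at 0.626 FPKM at day 30, while IGF2BP1, IGF2BP2 and HMGA2 lie at 35.8, 58.8 and 15.7 FPKM at day 30.

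LIN28A was the most abundant member on every day through day 6, and almost gone at day 30. LIN28A (ENSG00000131914, chr1:26410778-26429722, plus strand) measured 380 FPKM at day 0, 305 at day 2, 314 at day 3, 273 at day 4, 275 at day 6 and 0.626 (0.425 to 0.889) at day 30. It ranked as number 50 of the 19951 protein-coding genes at day 0, 57 at day 6 and 12908 at day 30, where 31 reads remained. The first 5 libraries lie between 273 and 380 FPKM and the day 30 library stands far below all of them, and days 4 and 6 differed by less than their counting interval (1.01-fold, 0.986 to 1.03). At day 30 LIN28A was 439-fold lower than at day 6 (309 to 647) and 607-fold lower than at day 0 (428 to 894). None of its 4 steps up to day 6 was called. The 24 days between the last 2 libraries were not sampled, so the day on which the transcript was lost is not known.

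LIN28B, the paralogue best known from liver and other tumours, was lower than LIN28A at the start and lost less. LIN28B (ENSG00000187772, chr6:104936616-105083332, plus strand) measured 39.1 FPKM at day 0, 27.5 at day 2, 16.9 at day 3, 19.9 at day 4, 21.1 at day 6 and 2.27 (1.94 to 2.64) at day 30, with 168 reads there. Days 4 and 6 could not be told apart by counting error (1.06-fold, 0.994 to 1.13), and each other neighbour in the order of levels differed by more than it. Day 30 was 9.30-fold lower than day 6 (7.95 to 10.9) and 17.2-fold lower than day 0 (14.8 to 20.3), and these were its only called differences among the comparisons.

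The balance within the pair turned over between day 6 and day 30. LIN28A exceeded LIN28B by 9.73-fold at day 0, 11.1-fold at day 2, 18.6-fold at day 3, 13.7-fold at day 4 and 13.1-fold at day 6. At day 30 LIN28B was the higher of the pair, by 3.62-fold (2.46 to 5.49). LIN28B made up 9.32% of the summed LIN28 FPKM at day 0 (exact binomial interval 9.02 to 9.63), 5.10% at day 3, 7.12% at day 6 and 78.3% (71.1 to 84.6) at day 30. That share is of a much smaller sum, since the pair together measured 419 FPKM at day 0, 296 at day 6 and 2.89 at day 30. A share within 1 library does not depend on the scaling between libraries. The antisense gene LIN28B-AS1 had 13 to 19 reads through day 6 and 0 at day 30, and the LIN28A pseudogene rows had 0 to 2 reads.

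L1TD1 departed from LIN28A from the first step. L1TD1 (ENSG00000240563, chr1:62194831-62212328, plus strand) measured 288 FPKM at day 0, 71.4 at day 2, 24.8 at day 3, 15.2 at day 4, 11.6 at day 6 and 0.273 (0.146 to 0.468) at day 30. Each library was lower than the one before it by more than counting error. The fall was 4.03-fold from day 0 to day 2 (3.90 to 4.16) and 2.88-fold from day 2 to day 3 (2.71 to 3.06), both called. The next 2 steps, 1.63-fold and 1.31-fold lower, were not called. Day 30, with 13 reads, was 42.4-fold lower than day 6 (24.6 to 80.0) and 1052-fold lower than day 0 (615 to 1976).

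Stem cell genes kept very different shares of their first level at day 6, as did LIN28A and L1TD1. At day 6 LIN28A stood at 72.3% of its day 0 FPKM, LIN28B at 53.9% and L1TD1 at 4.03%. In the same library POU5F1, the core pluripotency factor OCT4, was at 0.655% of day 0, SOX2 at 0.246% and NANOG at 0.320%. POU5F1 measured 561 FPKM at day 0, 352 at day 2, 100.2 at day 3, 34.5 at day 4, 3.68 at day 6 and 0.280 at day 30, so it was low in a library where LIN28A was still at 275 FPKM. LIN28A was not alone in this: of the same 12 markers SALL4, a zinc finger factor of pluripotent and fetal cells, stood at 86.4% at day 6, ZFP42, known as REX1, at 65.0% and TERT, the catalytic subunit of telomerase, at 38.9%. DNMT3B, a DNA methyltransferase, stood at 8.92% and DPPA4, a chromatin factor of pluripotent cells, at 5.72% at day 6, between L1TD1 and LIN28B. TRIM71, an RNA-binding ubiquitin ligase that is itself a let-7 target with 6 seed matches in its 3′ UTR, stood at 47.1% at day 6 and 2.74% at day 30. Its levels were 101, 44.7, 40.1, 39.5, 47.4 and 2.76 FPKM from day 0 to day 30. Its largest fold between neighbouring days was from day 6 to day 30, as for each member except HMGA2. That step spans 24 days, and 36.3% of all genes compared were called there.

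**Figure D2:**
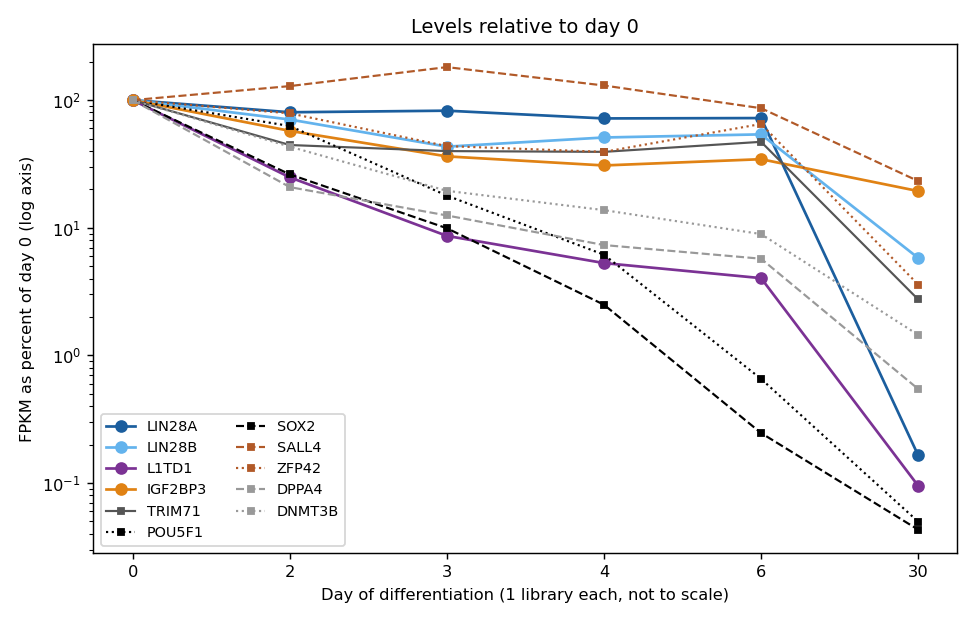
FPKM in the library of each day as percent of the day 0 library (log axis), for 4 members (circles) and for TRIM71, POU5F1, SOX2, SALL4, ZFP42, DPPA4 and DNMT3B (squares). At day 6 LIN28A is at 72.3% and L1TD1 at 4.03% of day 0, with SALL4 at 86.4% and POU5F1 at 0.655%.

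The IGF2BPs form a family of RNA-binding proteins with RRM and KH domains, and its 3 genes took separate courses. IGF2BP1 (ENSG00000159217, chr17:48997412-49055650, plus strand) measured 54.8 FPKM at day 0, 50.3 at day 2, 52.3 at day 3, 45.8 at day 4, 53.8 at day 6 and 35.8 at day 30. Its libraries up to day 6 lie close together, and day 30 is the lowest. Counting error could not separate day 0 from day 6, or day 6 from day 3. The intervals of day 0 (53.6 to 56.1) and day 3 (51.1 to 53.5) did not overlap. The gene was 1.53-fold lower at day 30 than at day 0 (1.47 to 1.59), which was not called.

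IGF2BP2 (ENSG00000073792, chr3:185643739-185825056, minus strand), the family member that adult tissues also express, measured 54.4 FPKM at day 0, 44.7 at day 2, 49.6 at day 3, 44.1 at day 4, 42.0 at day 6 and 58.8 at day 30. The last library is the highest and that of day 6 the lowest, and none of its differences was called. The small gap between days 4 and 6 (a log2 difference of -0.07) became 0.13 when libraries were scaled to equal summed FPKM. Day 30 was 1.40-fold higher than day 6 (1.34 to 1.47) and 1.08-fold higher than day 0 (1.03 to 1.13). The second of these turned to a log2 difference of -0.13 when libraries were scaled by their read totals, so its direction depends on the scaling.

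IGF2BP3 (ENSG00000136231, chr7:23310209-23470467, minus strand), the member most often named as a tumour marker, measured 32.5 FPKM at day 0, 18.7 at day 2, 11.8 at day 3, 9.99 at day 4, 11.2 at day 6 and 6.30 at day 30. The first library is the highest and the last the lowest, and days 3 and 6 could not be separated by counting error. No single step was called. Day 6 was 2.90-fold lower than day 0 (2.74 to 3.08), a pair of days chosen after the values were seen, and day 30 was 5.16-fold lower than day 0 (4.75 to 5.61), which was called. Exons of IGF2BP3 share 1521 bases with MALSU1 on the opposite strand, which measured 4.37 to 6.13 FPKM, and its reads numbered up to 34.3% of those of IGF2BP3. Whether counting separated the strands is not given in the sources used here, so reads over the shared bases cannot be placed with 1 of the pair.

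Within the family, IGF2BP2 stood at 0.992 of IGF2BP1 at day 0 (0.954 to 1.03) and ahead of it by 1.64-fold at day 30 (1.57 to 1.72). At day 6 the order was the other way, with IGF2BP1 ahead by 1.28-fold (1.23 to 1.33). IGF2BP3 made up 22.9% of the summed IGF2BP FPKM at day 0, 10.5% at day 6 and 6.24% at day 30, while the share of IGF2BP2 was 38.4%, 39.2% and 58.2%. The excess of IGF2BP2 over IGF2BP3 was 1.68-fold at day 0 (1.60 to 1.75) and 9.33-fold at day 30 (8.58 to 10.2). The sum of the family was 142 FPKM at day 0 and 100.9 FPKM at day 30, a far smaller loss than that of the LIN28 pair. These shares and ratios depend on the length assumed. With the length of 1 principal transcript in place of the deposited gene length, the shares at day 0 were 30.9% for IGF2BP1, 35.8% for IGF2BP2 and 33.3% for IGF2BP3, and IGF2BP3 made up 9.89% at day 30. The excess of IGF2BP2 over IGF2BP3 was then 1.07-fold at day 0 and 5.98-fold at day 30, and IGF2BP2 stood at 1.16 of IGF2BP1 at day 0, 0.910 at day 6 and 1.91 at day 30.

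**Figure D3:**
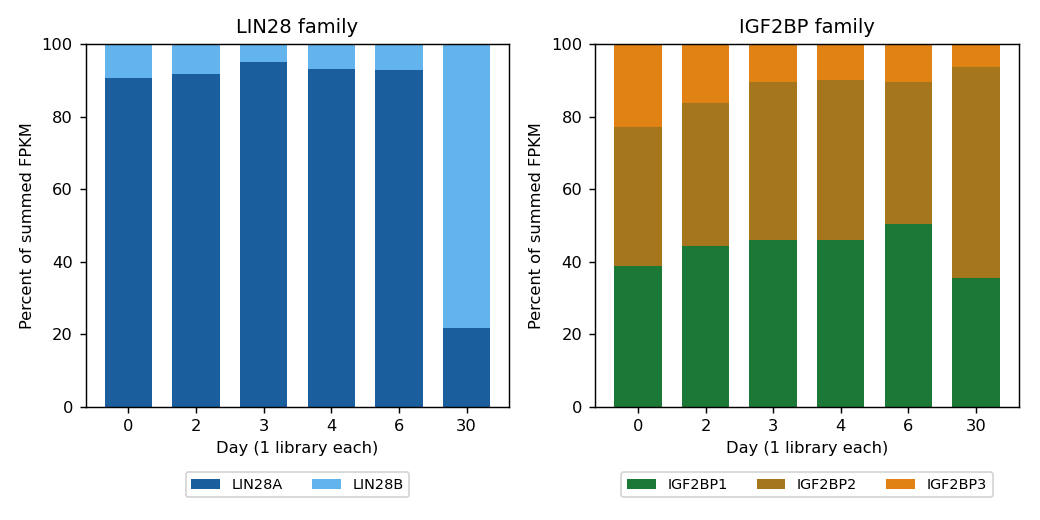
Share of each paralogue, in percent, of the summed FPKM of the LIN28 pair (left) and of the 3 IGF2BP genes (right) in the library of each day. LIN28B is at 7.12% of its pair at day 6 and 78.3% at day 30, and IGF2BP3 goes from 22.9% at day 0 to 6.24% at day 30.

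HMGA2, a textbook target of let-7, measured close to its first level in the last library. HMGA2 (ENSG00000149948, chr12:65824131-65966295, plus strand) measured 14.5 FPKM at day 0, 13.5 at day 2, 9.24 at day 3, 8.08 at day 4, 15.4 at day 6 and 15.7 at day 30. Days 3 and 4 are the low libraries, and days 6 and 30 differed by less than counting error (1.02-fold, 0.969 to 1.07), though this log2 difference of 0.02 became -0.39 under scaling by read totals. Day 6 was 1.91-fold higher than day 4 (1.81 to 2.01), a log2 difference of 0.85 that was not called but reached 1.04 when libraries were scaled to equal summed FPKM. Day 30 was 1.08-fold higher than day 0 (1.03 to 1.13), with a log2 difference of -0.13 instead under scaling by read totals. LIN28A was 26.2-fold above HMGA2 at day 0 (25.2 to 27.2), and HMGA2 was 25.0-fold above LIN28A at day 30 (17.6 to 36.9). The deposited length of HMGA2 is 15403 bases, against 4473 for its principal transcript. Its FPKM would be low for the number of transcripts if the reads came from that transcript, which was not measured. By the length of the principal transcript, LIN28A was 7.61-fold above HMGA2 at day 0 and HMGA2 86.1-fold above LIN28A at day 30. RPSAP52, which overlaps HMGA2 on the opposite strand, had 24 to 67 reads.

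Across the 7 members, the only calls in the steps up to day 6 were those of L1TD1, which was lower. With 7 genes, the counts at these steps are near the share of all genes called in either direction. From day 0 to day 2, 1 of 7 was called lower (L1TD1), and 0 higher, where 7.75% of the 16019 genes compared were called lower, 8.78% higher and 16.5% in either direction. From day 2 to day 3 it was again L1TD1 alone, against 4.98% of all genes lower, 7.13% higher and 12.1% in either direction. Between days 3 and 4 the count was 0 of 7, against 3.59% of all genes lower, 4.23% higher and 7.82% in either direction. Between days 4 and 6 it was again 0 of 7, against 6.71% lower, 5.51% higher and 12.2% in either direction. From day 6 to day 30, LIN28A, LIN28B and L1TD1 were called lower and 0 higher, against 15.3% of all genes lower, 21% higher and 36.3% in either direction. For day 30 against day 0, 4 of 7 were lower, IGF2BP3 being the fourth, and 0 were higher, against 19.1% of all genes lower, 25.9% higher and 45% in either direction. The median difference over the 7 was -0.74 from day 6 to day 30 and -2.20 from day 0 to day 30 on the log2 scale, beside 0.08 and 0.13 over all genes compared. The 2 comparisons share the day 30 library. Scaled by read totals, IGF2BP1 (-1.003) and IGF2BP3 (-1.13) were also past the rule from day 6 to day 30, which made 5 of 7 lower, while the share of all genes called lower was then 24.0%.

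**Figure D4:**
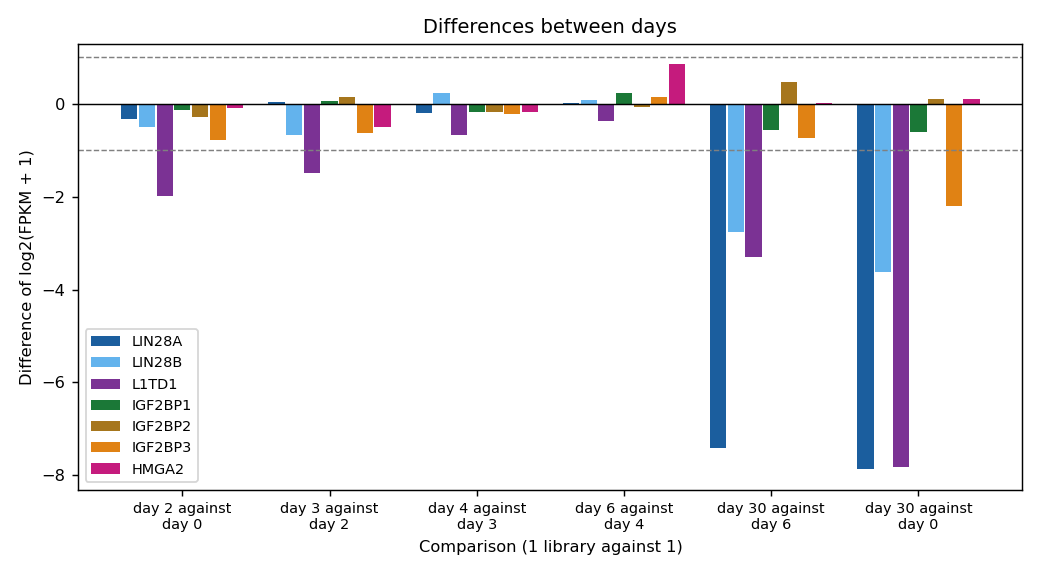
Difference of log2(FPKM + 1) between 2 libraries (first day minus second) for the 7 genes, with dashed lines at the call threshold of 1. L1TD1 is past it at days 2 and 3, no gene from day 3 to day 6, and LIN28A, LIN28B and L1TD1 at day 30 against day 6.

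Genes that make, uridylate or use let-7 numbered 14, and all passed the FPKM minimum. For day 30 against day 0, 1 was called higher and 3 lower, with a median of 0.02, beside 25.9% higher and 19.1% lower over all genes compared, so the lower count is near the share over all genes. The lower ones were TRIM71 (36.4-fold), DROSHA, which cuts primary microRNA transcripts, from 19.3 to 5.31 FPKM, and XPO5, which exports precursors from the nucleus, from 17.2 to 5.02 FPKM. The higher one was AGO3, an Argonaute protein, from 2.52 to 6.55 FPKM, which was not called when scaled by read totals. DICER1, which cuts the precursors, measured 17.1 FPKM at day 0 and 19.9 at day 30. TUT4, a uridylyltransferase that LIN28A recruits, measured 6.79 and 10.3 FPKM, its relative TUT7 measured 5.69 and 11.2, and DIS3L2, the exonuclease that degrades uridylated precursors, measured 2.47 and 1.42, and none of these was called. The effector enzymes were thus detected at day 30, in a library where LIN28A had 31 reads.

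Mature let-7 was not measured, since the libraries were made from longer fragments of poly-T selected RNA. The 12 hairpin rows together had 10 to 56 reads in a library, with 21 at day 0, 45 at day 6 and 10, the fewest, at day 30. MIRLET7A2 had 0 reads in each library. Of 8 host transcripts listed, 6 were matched by name and 3 passed the FPKM minimum for day 30 against day 0. MIR100HG, the long noncoding RNA that spans MIRLET7A2, had 0.0710 FPKM (20 reads) at day 0, 0.0985 at day 6 (33 reads) and 11.8 at day 30 (2822 reads), 166-fold higher than at day 0 (107 to 272). The others that passed were protein-coding hosts, HUWE1 for MIRLET7F2 and MIR98, at 39.8 and 24.7 FPKM, and WDR82 for MIRLET7G, at 23.1 and 25.4 FPKM, and neither was called. MIRLET7BHG had 1 read at day 0 and 7 at day 30, and MIR99AHG had 0 and 6 reads.

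Known let-7 targets outside the 7 members were called in both directions. Of 24 listed, 15 held CTACCTC in the 3′ UTR of their principal transcript, and 23 passed the FPKM minimum for day 30 against day 0. Of these, 5 were called higher and 7 lower, with a median of 0.20. Over all genes compared, 25.9% were called higher, 19.1% lower and 45% in either direction. The count in either direction and the 5 of 23 higher are near these shares. The 7 of 23 lower is above its share, and no test was made. HMGA1, the paralogue of HMGA2, measured 703 FPKM at day 0, 827 at day 2, 616 at day 3, 673 at day 4, 501 at day 6 and 93.4 at day 30, 7.53-fold lower than at day 0. MYCN, a MYC family transcription factor, went from 18.8 to 2.86 FPKM, CDC25A, a cell cycle phosphatase, from 10.1 to 1.16, and NRAS, a small GTPase, from 41.2 to 18.4. TRIM71 and ARID3B were also among the lower ones. The higher ones were FAS, a death receptor, from 0.550 to 7.80 FPKM (14.2-fold, 9.99 to 20.8), INSR, the insulin receptor, from 5.18 to 17.1, HRAS, CDC34 and ARID3A.

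Transcripts known to be bound by IGF2BPs included IGF2, the largest rise among the let-7, IGF2BP, cold shock and HMG lists. Of 10 listed, 9 passed the FPKM minimum for day 30 against day 0, and 3 were called higher and 0 lower, with a median of 0.19. With 25.9% of all genes called higher, 3 of 9 is near the share over all genes. IGF2, the fetal growth factor that gave the family its name, measured 0.00986 FPKM (1 read) at day 0, 0.0178 at day 2, 0.410 at day 3, 2.48 at day 4, 17.1 at day 6 and 163 (14067 reads) at day 30. From day 3 on, each library is above the one before it. The ratio of day 30 to day 0 rests on 1 read (16544-fold, 2969 to 653485). CD44, an adhesion receptor, went from 0.592 to 26.9 FPKM. MYC was 21.0 FPKM at day 0 and 13.3 at day 30, CTNNB1 43.5 and 49.9, and ACTB 1176 and 759, and none of these was called.

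The last lists were other high mobility group (HMG) chromatin proteins, of which only HMGA1 shares the AT-hooks of HMGA2, and other cold shock domain proteins. Of 9 HMG proteins, all measured, 7 were called lower for day 30 against day 0 and 0 higher, with a median of -1.80, beside 25.9% higher and 19.1% lower over all genes compared. HMGN5 went from 21.99 to 1.11 FPKM, HMGB3 from 104 to 9.39 and HMGB1 from 70.6 to 16.5, while HMGN1 (72.4 and 39.9) and HMGN4 (45.4 and 25.9) were not called, though scaling by read totals called all 9 lower. HMGA2 itself, at 14.5 FPKM at day 0 and 15.7 at day 30, was not called. Of the 6 cold shock domain genes, 1 was higher and 1 lower, with a median of -0.45. CSDC2 went from 0.191 to 8.12 FPKM and YBX2, a germ cell protein, from 7.02 to 1.81, while YBX1, the abundant family member, measured 353 and 257 FPKM.

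**Figure D5:**
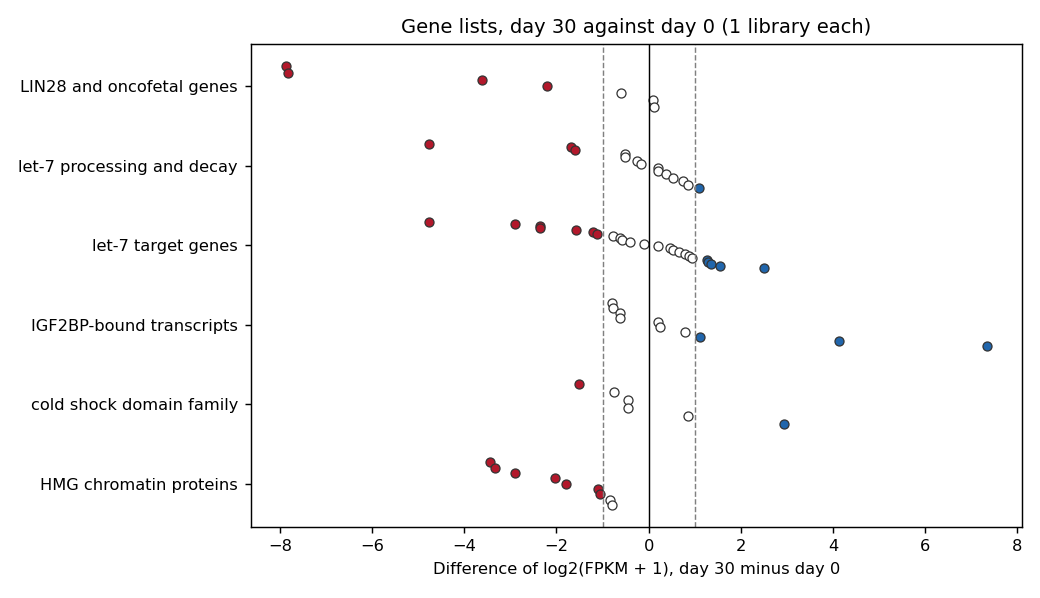
Difference of log2(FPKM + 1), day 30 minus day 0, for each gene of the members and 5 lists, 1 point for each gene, including genes below the FPKM minimum. Filled points passed the call rule (dashed lines at 1 and -1), red for lower and blue for higher, and open points did not. The 9 HMG proteins lie below 0, and the let-7 targets lie on both sides.

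Genes with the most similar course over the 6 libraries were named by the Pearson r of log2(FPKM + 1), among 2114 protein-coding genes that reached 10 FPKM and ranged over at least 2 on the log2 scale. The points share the libraries, and the day 30 library weighs heavily in each r. For LIN28A the closest were FANCL (r = 0.999), KLHL23 and CDCA7. FANCL measured 12.4 FPKM at day 0, 12.2 at day 6 and 1.71 at day 30. For LIN28B they were RFC4 (r = 0.999), ZNF738 and IARS. For L1TD1 they were DNMT3B (r = 0.997), DPPA4 and SET, and for IGF2BP3 PCYT1B (r = 0.997), ZNF678 and RRAS2. IGF2BP1 was closest to SLC7A3 (r = 0.990), PIF1 and KIF20A, and IGF2BP2 to SYT7 (r = 0.987), RND3 and TRAF3IP2. IGF2BP1, IGF2BP2 and HMGA2 did not themselves range over 2 on the log2 scale, so genes as flat as they were could not be named. The r also leaves out the size of a change. SLC7A3 measured 53.6 FPKM at day 0 and 0.465 at day 30, where IGF2BP1 measured 54.8 and 35.8. Among these 2114 genes, HMGA2 had CSRP2 first (r = 0.919) and 0 genes at 0.95 or more, where the other 6 had 11 to 129. Genes that ranged as little as HMGA2 were not among those compared, so company of that kind could not be counted. Without day 30 the 3 closest genes shared 1 with those named for IGF2BP2 and for HMGA2, and 0 for the other 5, so the named genes depend on that library.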

How the data were processed

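RNA of H9 cultures was sequenced in 6 libraries, 1 for each day. Per the labels' protocols, messenger RNA was taken with poly-T beads and primed with random hexamers. Reads were handled with featureCounts 1.5.0-p3, HISAT2 and CASAVA, per the submitters' processing notes. How these were set, the genome build and the use of strand were not given in the sources used here. The authors deposited FPKM values for 58735 genes, all of which equal GENCODE release 29 on GRCh38 by identifier, start, end and strand. FPKM times gene length gave whole reads within 0.001 read for 100% of values above 0, and totals were 13500887 to 15526924.

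Differences were taken on log2(FPKM + 1), which understates the change of low genes, and called at 1 with an FPKM of at least 1 in either library. No test was made, with 1 library a day. Intervals are 95%, exact Poisson for levels, exact binomial for shares and exact conditional binomial for folds, and cover counting error only. Reads are not counted molecules, so the intervals may be too narrow. The deposited denominators were 0.826 (day 30) to 1.12 (day 6) times the read totals, so scaling by read totals moves log2 ratios of FPKM by -0.44 from day 6 to day 30 and -0.25 from day 0 to day 30, and scaling to equal summed FPKM moves those between days 2 and 3 by 0.24, days 3 and 4 by -0.14, days 4 and 6 by 0.20 and days 6 and 30 by -0.31. The third scaling used the median over genes of each library's reads against their geometric mean. It moves log2 ratios of FPKM by -0.0015 from day 6 to day 30 and by -0.021 from day 0 to day 30. Differences of log2(FPKM + 1) of low genes move by other amounts.

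The 7 members and 12 gene lists were chosen with earlier results of these data known. The text names all members, rows that overlap them or carry their name, the called list genes with the greatest change (up to 4 for each list), list genes whose role a sentence describes and the 3 genes most like each member. SALL4, ZFP42, TERT, MYL7, THY1, COL3A1, KDR, STMN2 and NCAM1 were named after their values were seen. Values of some list genes are not reported here, though list counts include them. The procedure was tested on simulated reads. Principal coding transcripts were taken from GENCODE by their APPRIS and CCDS tags, then length, and let-7 sequences from RefSeq (GRCh38.p14). Alternatives were another pseudocount, no or a higher FPKM minimum, 3 scalings, a higher threshold, a counting interval that excludes 1, leaving out day 30 for the most similar genes and, added after the data were seen, the length of 1 transcript for the shares and ratios. Python 3.11.15, numpy 2.4.6, pandas 2.3.3, scipy 1.17.1 and matplotlib 3.10.9 were used.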

Additional observations from a re-analysis of the deposited data

How the results depend on the processing

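Of 336 member differences under an alternative, 330 kept their side of the call rule, 4 came past it and 2 fell behind it, and no called difference changed sign. The 330 include those under no or a higher FPKM minimum, which could not change a member. Each member reached 5 FPKM in at least 1 library of each comparison. With a pseudocount of 0.1 the genes called were 4222, 3439, 2361 and 3380 in the first 4 steps, and 1 IGF2BP-bound transcript was lower for day 30 against day 0. With an FPKM minimum of 5 they were 1319, 939, 442 and 914, then 3678 from day 6 to day 30 and 4845 from day 0 to day 30, and at a threshold of 2 they were 435, 213, 113, 332, 1592 and 2369 in the same order. The deposited scaling and threshold of 1 gave 2648, 1956, 1281, 2045, 6537 and 8041. Requiring a counting interval without 1 left 769 genes from day 3 to day 4. At the threshold of 2, 0 members were lower at day 2 against day 0 and at day 3 against day 2, where L1TD1 stood at -1.99 and -1.49. At that threshold, for day 30 against day 0, let-7 processing genes were 0 higher and 1 lower, let-7 targets 1 higher and 4 lower, cold shock genes 0 lower and HMG proteins 4 lower. Scaling by read totals gave 5 members lower from day 6 to day 30 (IGF2BP1 -1.003, IGF2BP3 -1.13), 0 let-7 processing genes higher, 2 IGF2BP-bound transcripts higher and 1 lower, and 9 HMG proteins lower for day 30 against day 0. Scaling by summed FPKM gave 1 member higher from day 4 to day 6 (HMGA2, 1.04), IGF2BP3 at -1.02 from day 6 to day 30 and 6 HMG proteins lower. Of the genes called, 57.8% were higher from day 6 to day 30, against 37.4% by read totals and 43.1% by summed FPKM, which also moved this share from 58.9% to 74.6% at day 3 and from 45.1% to 57.4% at day 6. At a threshold of 2 the higher share was 69.4% at day 2 and 69.5% from day 6 to day 30. By the length of 1 transcript, a choice made after seeing the data, LIN28B was 10.1%, 8.95%, 5.53%, 7.36% and 7.71% of its pair from day 0 to day 6. IGF2BP1, IGF2BP2 and IGF2BP3 were then 30.9%, 35.8% and 33.3% of their sum at day 0, and IGF2BP1 30.9% and IGF2BP3 9.89% at day 30. This length turned the ratio of IGF2BP1 to IGF2BP3 at day 0 from 1.69 to 0.928, and that of IGF2BP2 to IGF2BP1 from 0.889 to 1.04 at day 2 and from 0.949 to 1.11 at day 3. Without day 30 the closest genes shared 1 of 3 for IGF2BP2 and HMGA2 and 0 of 3 for the other 5 members, and with a pseudocount of 0.1 they shared 0 for L1TD1. The causes were not tested. No paired analysis was possible because each day has 1 library. Depth limits LIN28A and L1TD1 at day 30, with 31 and 13 reads.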
